A study of Mus musculus with 4 samples.

Results

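The levels of 10 genes of the extracellular matrix protease system were measured in all cells of the series. They are 3 tissue inhibitors of metalloproteinases (*Timp1*, *Timp2* and *Timp3*), 2 matrix metalloproteinases (*Mmp2* and *Mmp14*) and 5 proteases of the ADAMTS family (*Adamts1*, *Adamts2*, *Adamts4*, *Adamts5* and *Adamts7*). The genes were chosen by name, with earlier results of these data known. Each was matched to 1 row of the 27998 genes counted, so that all 10 members were found. Their molecules were counted in muscle stem cells (satellite cells) from healthy and dystrophic mice, in 1 single-cell RNA library for each of 4 strains. The B10 library came from C57/Bl10ScsSn mice of 15 weeks, and the *mdx* library from C57BL/10ScSn-Dmdmdx mice of 11 weeks. The DBA library came from DBA/2 mice of 13 weeks, and the D2-*mdx* library from D2.B10-Dmdmdx mice of 14 weeks. Both dystrophic strains carry the *mdx* allele of *Dmd* in every cell of the body, so muscle fibres, immune cells and stem cells lack dystrophin together. Every library pooled hindlimb muscle of 2 mice, male by the methods of the study, digested with collagenase B and dispase II. Cells were sorted as negative for Cd11b, Sca1, Cd45 and Cd31 and positive for α7-integrin and VCAM1. Since a strain is 1 library, age, litter, sort and sequencing library cannot be told apart from genotype. No test was therefore run. Each interval in parentheses has a level of 95% and covers counting error only, not differences between mice.

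The matrix around a muscle fibre is built of collagens, laminins, fibronectin and proteoglycans, and secreted or membrane-bound metalloproteinases cut it when stem cells move, divide and fuse. MMP2 is a gelatinase secreted as an inactive precursor, which the membrane-bound MMP14 cuts in a complex bridged by TIMP2. The ADAMTS proteases cut proteoglycans such as versican and aggrecan, with ADAMTS1, ADAMTS4 and ADAMTS5 among them, whereas ADAMTS2 trims the ends of fibrillar procollagens and ADAMTS7 cuts cartilage oligomeric matrix protein. TIMPs bind the catalytic site of metalloproteinases. Of the TIMPs, TIMP3 stays bound to the matrix and also inhibits ADAMTS and ADAM proteases. TIMP1 is a soluble inhibitor that is induced in many tissues after injury.

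On GRCm38, *Timp1* (ENSMUSG00000001131) lies on chromosome X from 20870166 to 20874735, inside an intron of *Syn1* on the opposite strand. *Timp3* (ENSMUSG00000020044, chromosome 10, 86300372 to 86349506) lies inside *Syn3* on the opposite strand, and exons of the pair overlap. *Timp2* (ENSMUSG00000017466) is on chromosome 11 from 118301069 to 118355740, *Mmp2* (ENSMUSG00000031740) on chromosome 8 from 92827291 to 92853420 and *Mmp14* (ENSMUSG00000000957) on chromosome 14 from 54431612 to 54445364. *Adamts1* (ENSMUSG00000022893) and *Adamts5* (ENSMUSG00000022894) are neighbours on chromosome 16, from 85793827 to 85803113 and from 85856173 to 85901828. They lie on the same strand with 53059 bases and no other protein-coding gene between them. *Adamts2* (ENSMUSG00000036545) is on chromosome 11 from 50602084 to 50807573, *Adamts4* (ENSMUSG00000006403) on chromosome 1 from 171250421 to 171260637 and *Adamts7* (ENSMUSG00000032363) on chromosome 9 from 90163069 to 90208071. Exons of *Adamts7* overlap those of *Tbc1d2b* on the opposite strand.

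Promoter windows of RefSeq (GRCm38.p6) were matched for 6 of the 10 members, *Timp1*, *Timp2*, *Timp3*, *Mmp14*, *Adamts1* and *Adamts2*. The 150 bases just before the annotated start are shown for *Timp1* and *Mmp14*, which had more UMIs in both dystrophic libraries, and for *Adamts1*, which had fewer. All are written 5′ to 3′ on the strand of the gene, and capitals mark the GC box GGGCGG on either strand and the TATA box TATAAA.
*Timp1*, chrX:20870016-20870165, plus strand: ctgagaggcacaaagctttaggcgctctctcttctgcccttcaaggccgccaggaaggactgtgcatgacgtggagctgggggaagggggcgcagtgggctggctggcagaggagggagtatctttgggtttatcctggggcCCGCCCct
*Mmp14*, chr14:54431448-54431597, plus strand: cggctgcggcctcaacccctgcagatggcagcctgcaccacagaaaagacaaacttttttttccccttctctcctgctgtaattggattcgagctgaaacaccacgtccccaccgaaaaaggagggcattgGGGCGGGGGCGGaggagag
*Adamts1*, chr16:85803114-85803263, minus strand: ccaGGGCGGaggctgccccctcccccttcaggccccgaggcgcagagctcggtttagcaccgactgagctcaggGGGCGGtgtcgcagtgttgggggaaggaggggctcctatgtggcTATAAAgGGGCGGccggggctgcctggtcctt
The letters searched on both strands, over the 250 bases before the start, were the AP-1 motif (TGA, any base and TCA), its variant TGAGTAA, the CRE (TGACGTCA), the GC box and the TATA box. A GC box was found in the windows of all 6 members, and in 32.7% of 32851 windows of the genome. The TATA box was found in the window of *Adamts1* and in 12.4% of all windows. None of the 6 windows held the AP-1 motif, its variant or the CRE, which were found in 6.75%, 2.25% and 1.55% of all windows. These matches describe the letters and are not sites of binding.

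Between 3279 and 6313 cells per library passed the filters and were not predicted doublets, with medians of 6666 to 10434 unique molecular identifiers (UMIs, the counted mRNA molecules) per cell. At most 8 cell barcodes were shared by a pair of libraries. The B10 library stood apart in holding 4739 barcodes under 1000 genes, against 11 to 21 in the others, and these were left out. Myogenic cells were 96.4% of the kept cells in B10, 82.3% in DBA, 76.4% in *mdx* and 72.7% in D2-*mdx*. They were divided by markers into muscle stem cell-like (MuSC-like, with *Pax7*, *Myf5* and *Calcr* among their markers), cycling progenitor-like, differentiating myocyte-like, immunomyoblast-like and DMD-enriched-like cells. Cycling progenitor-like cells numbered 99 in B10, 67 in DBA, 390 in *mdx* and 471 in D2-*mdx*, and immunomyoblast-like cells 103, 11, 81 and 31. The DMD-enriched-like cluster held 36 cells in B10 and 50 in DBA, and 914 in *mdx* and 578 in D2-*mdx*. Of its leading genes *Postn* ranked 1 and *Col1a2* 6, and both are among the fixed markers that named it. MuSC-like cells were 93.8% of the myogenic cells in B10, 93.6% in DBA, 66.5% in *mdx* and 69.2% in D2-*mdx*. The members and the other listed proteases and inhibitors were left out of the genes used for clustering. In the myogenic cells *Pax7* was at 907 CPM (UMIs scaled to the same total per library) in B10 and 424 in *mdx*, and at 695 in DBA and 426 in D2-*mdx*. *Dmd* was at 324 CPM in B10 and 120 in *mdx*, and at 287 in DBA and 94.3 in D2-*mdx*, so the level of the mutated gene was lower in both libraries labelled dystrophic.

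The cell classes differed in which members they held. A level here is the mean CPM of the libraries with at least 20 cells of the class, with the lowest and highest of these libraries in parentheses. UMIs are counted at the 3′ end and are not scaled by gene length, so a level is compared between cells for 1 gene at a time.

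**Figure D1:**
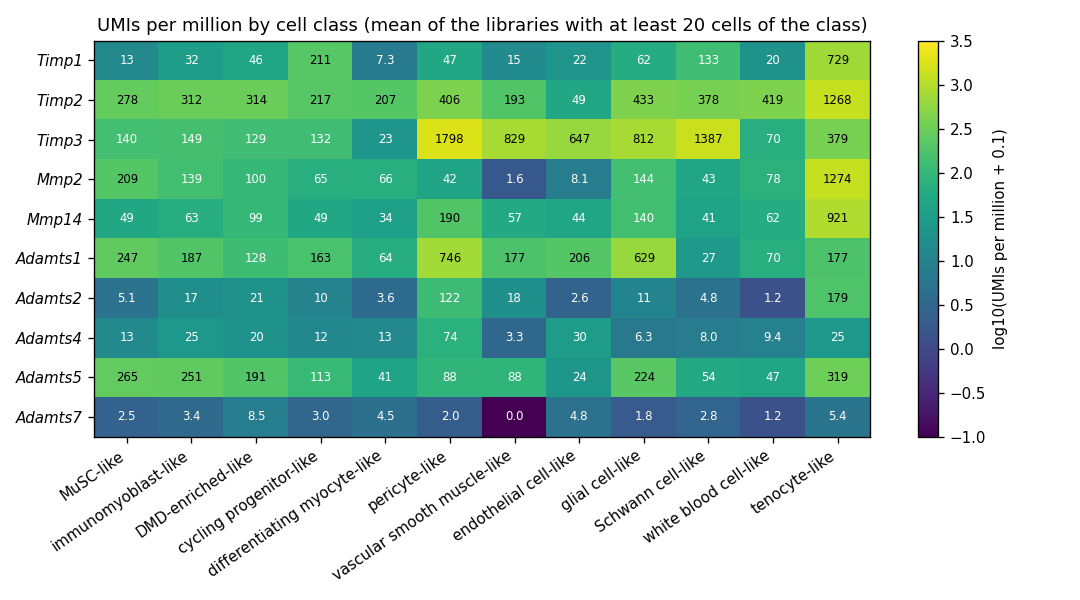
Level of the 10 genes (rows) in 12 cell classes (columns) as CPM, the mean of the libraries with at least 20 cells of the class. The numbers are the levels and the color is their log10 after adding 0.1. Tenocyte-like cells are at the highest level for 6 genes and pericyte-like cells for *Timp3*, *Adamts1* and *Adamts4*.

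Pericyte-like cells had the highest mean level of *Timp3*, the inhibitor held in the matrix, with 1798 CPM (947 to 2577) over 4 libraries, followed by Schwann cell-like cells with 1387 (1205 to 1569) over *mdx* and D2-*mdx* alone. These ranges overlapped, and within D2-*mdx* the Schwann cell-like cells were the higher, at 1205 against 947. The myogenic classes held far less of it, from 148.6 CPM in immunomyoblast-like cells and 140 CPM (60.9 to 255) in MuSC-like cells down to 23.0 (9.37 to 42.3) in differentiating myocyte-like cells. *Adamts1* was likewise highest in pericyte-like cells, at 746 CPM (522 to 848), with glial cell-like cells next at 629 (521 to 801) and MuSC-like cells after them at 247 (194 to 318). The ranges of the pericyte-like and glial cell-like cells overlapped, and those of the MuSC-like cells lay below both. *Adamts4* was at 73.9 CPM (45.1 to 104) in pericyte-like cells and at 13.3 (6.11 to 19.4) in MuSC-like cells.

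Tenocyte-like cells, of which there were 29 in *mdx* and 50 in D2-*mdx* with 6 in B10 and 8 in DBA, had the highest level of *Timp1*, *Timp2*, *Mmp2*, *Mmp14*, *Adamts2* and *Adamts5*. As many fibroblast as tenocyte markers led this cluster. *Timp1* was at 729 CPM (561 to 898) there and at 211 (10.1 to 484) in cycling progenitor-like cells, the next class. The first mean rests on *mdx* and D2-*mdx* alone and the second on 4 libraries, and within these libraries the levels were 898 against 484 in *mdx* and 561 against 337 in D2-*mdx*. *Mmp2* was at 1274 CPM (1063 to 1485) there and at 209 (140 to 364) in MuSC-like cells, likewise the next class. *Mmp14* was at 921 CPM (803 to 1039) in tenocyte-like cells, followed by 190 (168 to 212) in pericyte-like cells, 139.9 (96.4 to 182) in glial cell-like cells and 99.4 (84.8 to 109) in DMD-enriched-like cells, the highest of the myogenic classes. MuSC-like and cycling progenitor-like cells, at 48.7 (36.5 to 58.2) and 49.3 (41.2 to 56.9) CPM of *Mmp14*, did not differ beyond their ranges. *Adamts5* was at 319 CPM (196 to 441) in tenocyte-like, 265 (188 to 320) in MuSC-like and 251 (208 to 284) in immunomyoblast-like cells, 3 ranges that overlapped. The first of these means again rests on *mdx* and D2-*mdx* alone. Within *mdx* the tenocyte-like cells were lower than the MuSC-like, at 196 against 320, and within D2-*mdx* higher, at 441 against 267. *Adamts2*, the procollagen protease, was at 179 CPM (129 to 230) in tenocyte-like and 122 (103 to 147) in pericyte-like cells, and at no more than 20.5 (2.85 to 38.5) in the myogenic classes. *Timp2* lay between 207 and 314 CPM in the 5 myogenic classes and between 49.1 CPM in endothelial cell-like and 1268 CPM in tenocyte-like cells elsewhere. *Adamts7* was at or below 8.48 CPM in every class.

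The question of the series was how loss of dystrophin changes muscle stem cells in a mild and in a severe model, so each dystrophic library was set against the healthy one of its background. In the sum of all myogenic cells, 9 of the 10 members reached 10 CPM in one of the libraries of either pair. In *mdx* over B10, 3 members were at least 2-fold higher (*Timp1*, *Adamts2* and *Adamts4*) and 2 at least 2-fold lower (*Timp3* and *Adamts1*). By the same rule 4.7% of 8477 genes were higher and 5.19% lower. In D2-*mdx* over DBA the same 3 members were higher and *Timp3*, *Mmp2* and *Adamts1* were lower, against 5.81% and 5.82% of 8503 genes. The study had already listed *Adamts2*, *Adamts4* and *Adamts7* among the genes upregulated in both models. It also named *Adamts14* and *Mmp15*, which are on the other lists below and were not called higher here by the rule with 10 CPM. As the members were chosen with earlier results of these data known, the shares beside them are a description and no test of the set. The median log2 ratio of the 9 members was 0.03 in both comparisons, beside -0.03 and -0.07 over all genes, so the members lay on both sides of the other genes.

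**Figure D2:**
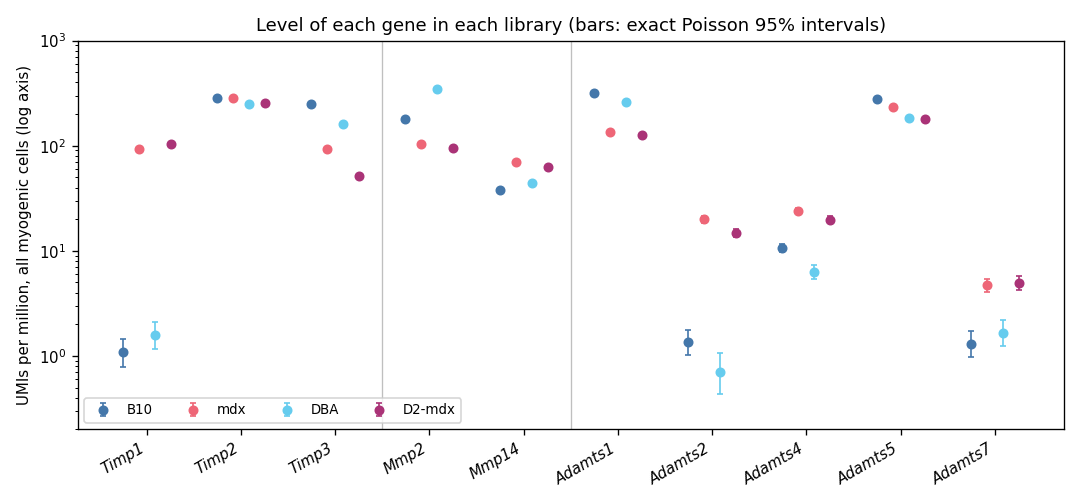
CPM of each of the 10 genes in all myogenic cells, on a log axis, with 1 point per library and exact Poisson 95% intervals as bars. Grey lines part the inhibitors, the MMPs and the ADAMTS proteases. The points of *mdx* and D2-*mdx* lie above those of B10 and DBA for *Timp1*, *Mmp14*, *Adamts2*, *Adamts4* and *Adamts7*, and below them for *Timp3*, *Mmp2* and *Adamts1*.

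*Timp1*, the soluble inhibitor, had the largest log2 ratios of the members. Its 43 UMIs in B10 gave 1.08 CPM (0.780 to 1.45) and its 48 UMIs in DBA gave 1.59 CPM (1.17 to 2.11). The *mdx* library had 3733 UMIs, 92.5 CPM (89.5 to 95.5), and D2-*mdx* 3590 UMIs, 103 CPM (99.6 to 106). Both dystrophic libraries therefore lay above both healthy ones, with log2 ratios of 6.42 (5.99 to 6.89) in *mdx* over B10 and 6.01 (5.60 to 6.46) in D2-*mdx* over DBA. When barcodes of at least 500 genes were kept with no upper limit, the latter was 4.88, and that of DBA over B10 was 2.18 in place of 0.56. For shares of cells, those under 3000 UMIs were left out and the others were thinned to 3000 UMIs. A *Timp1* UMI was then found in 0.297% of the remaining myogenic cells of B10, 0.370% of DBA, 11.3% of *mdx* and 13.1% of D2-*mdx*. Without thinning the shares were 0.860%, 1.30%, 22.7% and 25.5%. The UMIs were concentrated, as 83.4% of them in *mdx* and 79.7% in D2-*mdx* came from the 10% of cells with the most, and a single cell held up to 68. This was not particular to *Timp1*, as the same shares were 78.7% and 82.2% for *Timp3*. Those of *Adamts2*, 91.0% and 100%, cannot show concentration, as only 11.5% and 9.61% of the cells held a UMI of it.

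Within the myogenic cells, *Timp1* was highest in cycling progenitor-like cells of the dystrophic libraries. These held 10.1 CPM in B10 (14 UMIs), 12.2 in DBA (13 UMIs), 484 (465 to 504) in *mdx* and 337 (323 to 351) in D2-*mdx*. They made up 11.9% of the myogenic UMIs in *mdx* and 20.3% in D2-*mdx* but gave 62.1% and 66.5% of the *Timp1* UMIs. A thinned UMI was found in 50.3% of the cycling progenitor-like cells of *mdx* and 45.6% of those of D2-*mdx*, at median depths of 10957.5 and 13110 UMIs. The lowest share among classes of at least 20 cells was 2.73% in *mdx*, in white blood cell-like cells with a median depth of 8231.5 UMIs, and 5.80% in D2-*mdx*, in differentiating myocyte-like cells with a median depth of 10586 UMIs. DMD-enriched-like cells followed with 74.7 CPM in *mdx* and 92.4 in D2-*mdx*, against 5.30 (2 UMIs) in B10 and 11.4 (8 UMIs) in DBA, with log2 ratios of 3.82 (1.96 to 6.87) and 3.02 (2.03 to 4.23).

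**Figure D3:**
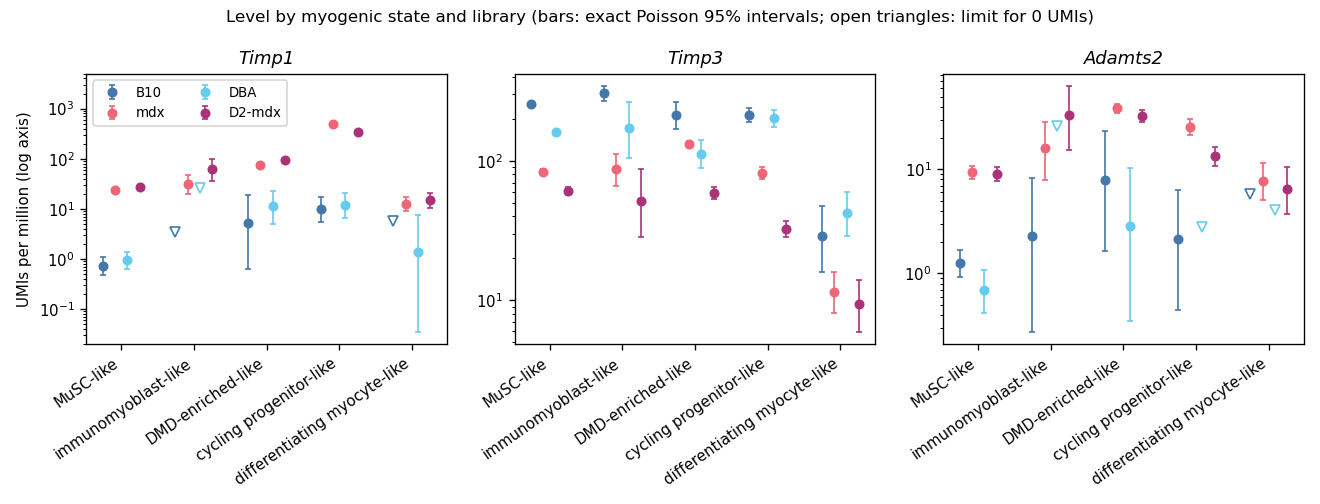
Levels of *Timp1*, *Timp3* and *Adamts2* as CPM on log axes, by myogenic state and library, with exact Poisson 95% intervals as bars and open triangles at 3 UMIs where none were counted. *Timp1* peaks in cycling progenitor-like cells at 484 in *mdx* and 337 in D2-*mdx*, while *Timp3* is below the healthy library of the same background in every state.

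The gap in *Timp1* was also present in MuSC-like cells, where it was smaller. Their level was 0.735 CPM in B10, 0.945 in DBA, 23.5 (21.4 to 25.7) in *mdx* and 27.4 (25.1 to 29.97) in D2-*mdx*, with log2 ratios of 5.00 (4.44 to 5.61) and 4.86 (4.29 to 5.49). It was found in both of the largest MuSC-like clusters, with log2 ratios of 4.88 and 4.63 in the cluster led by the immediate-early genes *Nr4a1* and *Btg2* and of 5.02 and 6.62 in the next. The ratios of the next cluster rest on few healthy UMIs. *Timp1* was 0.177% of 4528 inhibitor UMIs in its B10 cells and 0.0891% of 3366 in its DBA cells. In immunomyoblast-like cells *Timp1* had 0 UMIs in both healthy libraries, 22 in *mdx* and 17 in D2-*mdx*. With 3 UMIs put in place of each 0 the log2 ratios were 3.23 and 1.29, which are not limits of an interval. Pericyte-like cells showed the same direction, with 4.67 CPM in B10, 2.13 in DBA, 94.3 in *mdx* and 87.7 in D2-*mdx*, log2 ratios of 4.33 (3.10 to 5.96) and 5.36 (4.55 to 6.32).

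*Timp2* hardly differed between libraries. It was at 282 CPM in B10, 251 in DBA, 287 in *mdx* and 256 in D2-*mdx*. Its log2 ratios were 0.03 (-0.01 to 0.06) in *mdx* over B10 and 0.03 (-0.02 to 0.07) in D2-*mdx* over DBA, intervals that reach at most 0.07. A thinned UMI was found in 51.9% to 55.9% of the myogenic cells of every library. In cycling progenitor-like cells the log2 ratios were -0.17 (-0.34 to 0.01) and 0.16 (-0.06 to 0.38).

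*Timp3* was lower in both dystrophic libraries. It was at 251 CPM (246 to 256) in B10 and 160 (155 to 164) in DBA, and at 92.0 (89.1 to 95.05) in *mdx* and 51.0 (48.7 to 53.5) in D2-*mdx*. The log2 ratios were -1.45 (-1.502 to -1.393) and -1.65 (-1.73 to -1.57), and both healthy libraries lay above both dystrophic ones. In MuSC-like cells alone they were -1.62 (-1.69 to -1.54) and -1.41 (-1.51 to -1.32). The difference was seen in every myogenic class, from -0.67 in DMD-enriched-like cells of *mdx* over B10 to -2.63 in cycling progenitor-like cells of D2-*mdx* over DBA. In pericyte-like cells *Timp3* was at 2577 CPM in B10, 1847 in DBA, 1822 in *mdx* and 947 in D2-*mdx*, with log2 ratios of -0.50 (-0.56 to -0.44) and -0.96 (-1.01 to -0.92). Over all kept cells the log2 ratio was 0.064 in *mdx* over B10 and -0.88 in D2-*mdx* over DBA. Pericyte-like cells, the class with the highest mean level of *Timp3*, made up 2.14% of the kept cells in B10, 14.7% in DBA, 9.63% in *mdx* and 16.97% in D2-*mdx*. *Syn3*, whose exons overlap *Timp3* on the other strand, had 9.65 CPM in B10, 4.98 in DBA, 3.05 in *mdx* and 1.18 in D2-*mdx*, and how the strand was used in counting is not given in the sources used here.

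**Figure D4:**
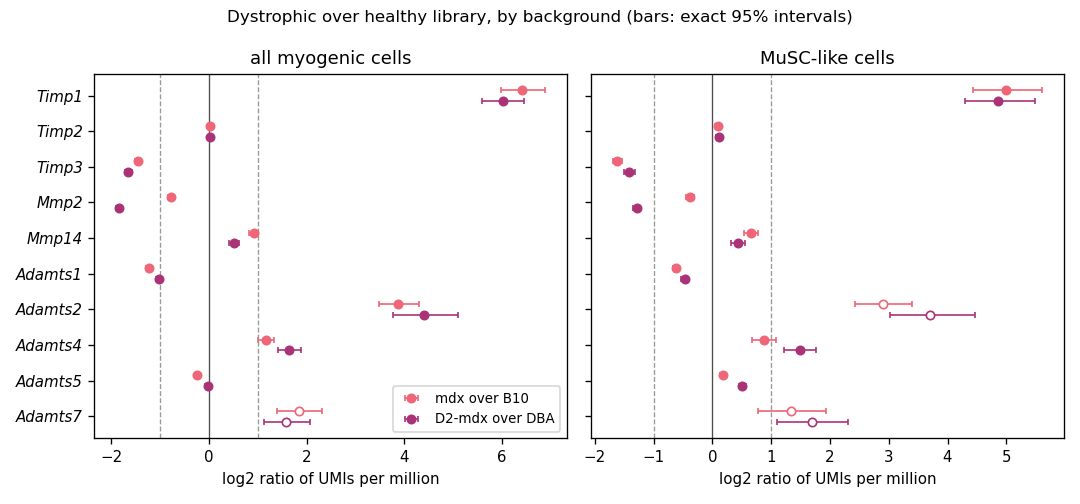
Log2 ratio of each gene in *mdx* over B10 and in D2-*mdx* over DBA, over all myogenic cells (left) and MuSC-like cells (right), with exact 95% intervals as bars and dashed lines at 2-fold. Open points are genes under 10 CPM in both libraries of the pair. *Timp1* stands at 6.42 and 6.01 on the left and at 5.00 and 4.86 on the right, and *Timp3* is past the 2-fold line in all 4 comparisons.

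*Mmp2*, the gelatinase, differed more between the healthy libraries than between *mdx* and B10. It was at 178 CPM (174 to 182) in B10, 345 (338 to 351) in DBA, 103 (100.1 to 106) in *mdx* and 95.9 (92.7 to 99.2) in D2-*mdx*. DBA therefore stood alone at the top, with a log2 ratio of 0.95 (0.91 to 1.00) over B10. The log2 ratio was -0.79 (-0.84 to -0.73) in *mdx* over B10 and -1.85 (-1.90 to -1.79) in D2-*mdx* over DBA. In MuSC-like cells it was -0.38 (-0.45 to -0.32) and -1.29 (-1.35 to -1.23). Of the myogenic classes MuSC-like cells held the most *Mmp2*, and in cycling progenitor-like cells the level was 103 CPM in B10, 114 in DBA, 30.3 in *mdx* and 14.5 in D2-*mdx*.

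*Mmp14*, the membrane-bound activator of MMP2, was higher in both dystrophic libraries by less than 2-fold. It was at 37.5 CPM (35.6 to 39.4) in B10, 43.9 (41.6 to 46.4) in DBA, 70.7 (68.1 to 73.3) in *mdx* and 63.0 (60.4 to 65.7) in D2-*mdx*. The log2 ratios were 0.92 (0.82 to 1.01) and 0.52 (0.42 to 0.62), and 0.65 (0.54 to 0.77) and 0.44 (0.32 to 0.56) in MuSC-like cells. Within DMD-enriched-like cells the 4 libraries lay between 84.8 and 109 CPM, with log2 ratios of 0.36 (-0.15 to 0.91) and -0.02 (-0.37 to 0.35).

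As MMP14, TIMP2 and MMP2 act in 1 complex, their joint detection was counted in thinned cells. A UMI of both *Mmp14* and *Timp2* was found in 6.49% of the myogenic cells of B10, 6.07% of DBA, 10.1% of *mdx* and 9.56% of D2-*mdx*, beside 6.15%, 5.97%, 9.22% and 8.65% for the product of the shares of each gene. All 3 genes were found together in 2.31%, 3.41%, 2.61% and 2.56% of cells, beside products of 2.28%, 3.60%, 2.46% and 2.39%. The transcripts were thus detected together about as often as the product of their shares gives.

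*Adamts1*, a protease of versican, was lower in both dystrophic libraries. It was at 315 CPM (310 to 321) in B10, 259 (253 to 265) in DBA, 134 (131 to 138) in *mdx* and 127 (123 to 131) in D2-*mdx*, and the healthy and dystrophic libraries did not overlap. The log2 ratios were -1.23 (-1.28 to -1.18) and -1.03 (-1.08 to -0.98), and the latter was past 2-fold under 4 of 12 alternatives. Over all kept cells they were -0.55 and -0.72. In MuSC-like cells they were -0.61 (-0.67 to -0.56) and -0.47 (-0.53 to -0.41), under 2-fold in both comparisons. In cycling progenitor-like cells they were -2.96 (-3.20 to -2.72) and -2.69 (-2.94 to -2.43), from 338 CPM in B10 to 43.4 in *mdx* and from 235 in DBA to 36.5 in D2-*mdx*.

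*Adamts2*, which trims procollagens, was near the limit of detection in the healthy libraries. It had 54 UMIs or 1.35 CPM (1.02 to 1.77) in B10 and 21 UMIs or 0.697 CPM (0.431 to 1.07) in DBA. In *mdx* it had 802 UMIs or 19.9 CPM (18.5 to 21.3) and in D2-*mdx* 514 UMIs or 14.7 CPM (13.5 to 16.1), with log2 ratios of 3.88 (3.48 to 4.30) and 4.40 (3.77 to 5.11). DMD-enriched-like cells gave 57.0% of its myogenic UMIs in *mdx* and 45.1% in D2-*mdx*, from 29.4% and 20.3% of all myogenic UMIs. Their level was 38.5 CPM (35.1 to 42.2) in *mdx* and 32.8 (28.7 to 37.3) in D2-*mdx*, and 7.95 (3 UMIs) in B10 and 2.85 (2 UMIs) in DBA, with log2 ratios of 2.28 (0.72 to 4.56) and 3.52 (1.65 to 6.58). In MuSC-like cells it was at 1.25, 0.691, 9.39 and 8.997 CPM in B10, DBA, *mdx* and D2-*mdx*, below 10 CPM in every library, with log2 ratios of 2.91 (2.43 to 3.40) and 3.70 (3.01 to 4.47). Cycling progenitor-like cells of DBA had 0 UMIs, against 95 in D2-*mdx*, a log2 ratio of 2.25 with 3 UMIs in place of 0. In pericyte-like cells, where it was higher, its level did not differ by strain in this way, with log2 ratios of 0.12 (-0.14 to 0.39) and -0.04 (-0.19 to 0.12).

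*Adamts4* was at 10.6 CPM (9.64 to 11.7) in B10, 6.31 (5.44 to 7.27) in DBA, 23.8 (22.3 to 25.4) in *mdx* and 19.7 (18.3 to 21.3) in D2-*mdx*. Both dystrophic libraries were above both healthy ones, with log2 ratios of 1.16 (1.00 to 1.33) and 1.65 (1.41 to 1.89). In MuSC-like cells the ratios were 0.88 (0.67 to 1.09) and 1.49 (1.21 to 1.77). In DMD-enriched-like cells 459 UMIs in *mdx* and 249 in D2-*mdx* stood against 1 in B10 and 3 in DBA. The log2 ratios there were 3.87 (1.38 to 9.17) and 3.04 (1.48 to 5.33). Such a difference was not seen in every class. The 4 libraries lay between 9.36 and 14.4 CPM in cycling progenitor-like cells and between 12.3 and 13.9 in differentiating myocyte-like cells.

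*Adamts5*, the other main aggrecan protease, was at 278 CPM in B10, 182 in DBA, 234 in *mdx* and 179 in D2-*mdx* over all myogenic cells. The log2 ratios there were -0.25 (-0.29 to -0.21) and -0.02 (-0.07 to 0.03). The myogenic classes went in different directions. In MuSC-like cells *Adamts5* was higher in the dystrophic libraries, with 283 CPM in B10, 188 in DBA, 320 in *mdx* and 267 in D2-*mdx* and log2 ratios of 0.18 (0.13 to 0.22) and 0.51 (0.45 to 0.56). Without integration the former was -0.01. In cycling progenitor-like cells *Adamts5* was lower, with 246 CPM in B10, 117 in DBA, 59.3 in *mdx* and 31.0 in D2-*mdx* and log2 ratios of -2.05 (-2.28 to -1.82) and -1.92 (-2.24 to -1.59).

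*Adamts7* had the fewest UMIs, with 1.30 CPM in B10, 1.66 in DBA, 4.68 in *mdx* and 4.99 in D2-*mdx* from 52, 50, 189 and 174 UMIs. It did not reach the minimum of 10 CPM in any library and is in no count of members past 2-fold. Its log2 ratios were 1.84 (1.39 to 2.32) and 1.59 (1.13 to 2.07). *Tbc1d2b*, which overlaps it on the other strand, was at 11.5, 11.7, 7.85 and 8.14 CPM in the same order.

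Within MuSC-like cells alone, 8 members reached 10 CPM in each comparison. In *mdx* over B10, *Timp1* was at least 2-fold higher and *Timp3* lower, against 2.95% and 3.39% of all genes. In D2-*mdx* over DBA, *Timp1* and *Adamts4* were higher and *Timp3* and *Mmp2* lower, against 3.56% and 3.61% of all genes. The MuSC-like cells of the healthy libraries were the deeper ones, with medians of 8310 UMIs per cell in B10, 10164 in DBA, 5633 in *mdx* and 5599.5 in D2-*mdx*, and the part of this in the differences was not tested. When the 5 myogenic classes were given the same weights in both libraries of a pair, an alternative chosen after seeing the data, the log2 ratios were 4.98 and 4.36 for *Timp1*, 2.72 and 3.91 for *Adamts2*, 1.14 and 1.50 for *Adamts4* and -1.43 and -1.51 for *Timp3*. Those of *Adamts1*, at -0.85 and -0.62, were then under 2-fold in both comparisons.

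Over all myogenic cells, no member differed 2-fold between the backgrounds. In D2-*mdx* over *mdx*, 9 members reached 10 CPM and 0 were past 2-fold in either direction, against 1.99% of genes higher and 1.53% lower. The largest difference was in *Timp3*, with a log2 ratio of -0.85 (-0.93 to -0.77), and *Timp1* was at 0.15 (0.09 to 0.22). In DBA over B10, 7 members reached 10 CPM and 0 were past 2-fold, against 1.76% and 1.79% of genes. *Mmp2*, at 0.95, was nearest to 2-fold, followed by *Adamts4* at -0.75 (-1.01 to -0.50), *Timp3* at -0.65 (-0.70 to -0.60) and *Adamts5* at -0.61 (-0.66 to -0.57). These comparisons share their libraries with those of disease. Within single classes some levels were more than 2-fold apart between the backgrounds, and those named here are examples. In cycling progenitor-like cells they were *Mmp2* and *Timp3* (*mdx* and D2-*mdx*) and *Adamts5* (B10 and DBA). In DMD-enriched-like cells they were *Timp3* (*mdx* and D2-*mdx*) and *Mmp2* (B10 and DBA). In differentiating myocyte-like cells *Adamts1* was (B10 and DBA).

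The sum of the 3 inhibitors was set against the sum of the 7 proteases. This ratio of UMIs says nothing of protein or activity, or of which inhibitor acts on which protease. Over all myogenic cells it was 0.650 (0.639 to 0.661) in B10, 0.492 (0.481 to 0.503) in DBA, 0.798 (0.783 to 0.814) in *mdx* and 0.813 (0.795 to 0.831) in D2-*mdx*. The dystrophic libraries were above their controls. The summed inhibitors were at 534 CPM in B10, 412 in DBA, 472 in *mdx* and 410 in D2-*mdx*, and the summed proteases at 822, 838, 591 and 504. The inhibitors were thus not higher in either dystrophic library than in its control, while the proteases were lower in both. In MuSC-like cells the ratio was 0.645, 0.479, 0.538 and 0.519, so that *mdx* lay below B10 there while D2-*mdx* lay slightly above DBA. In cycling progenitor-like cells it was 0.638 (0.579 to 0.704) in B10, 0.753 (0.662 to 0.857) in DBA, 3.44 (3.22 to 3.69) in *mdx* and 3.65 (3.41 to 3.90) in D2-*mdx*. There *Timp1* alone gave 60.6% of the inhibitor UMIs in *mdx* and 59.4% in D2-*mdx*, against 2.08% in B10 and 3.11% in DBA. The summed proteases of these cells were at 760 CPM in B10, 520 in DBA, 232 in *mdx* and 155 in D2-*mdx*, and the summed inhibitors at 485, 391, 799 and 567. The inhibitors of all myogenic cells differed in make-up, since *Timp3* was 47.0% of their UMIs in B10 and 38.8% in DBA but 19.5% in *mdx* and 12.5% in D2-*mdx*.

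**Figure D5:**
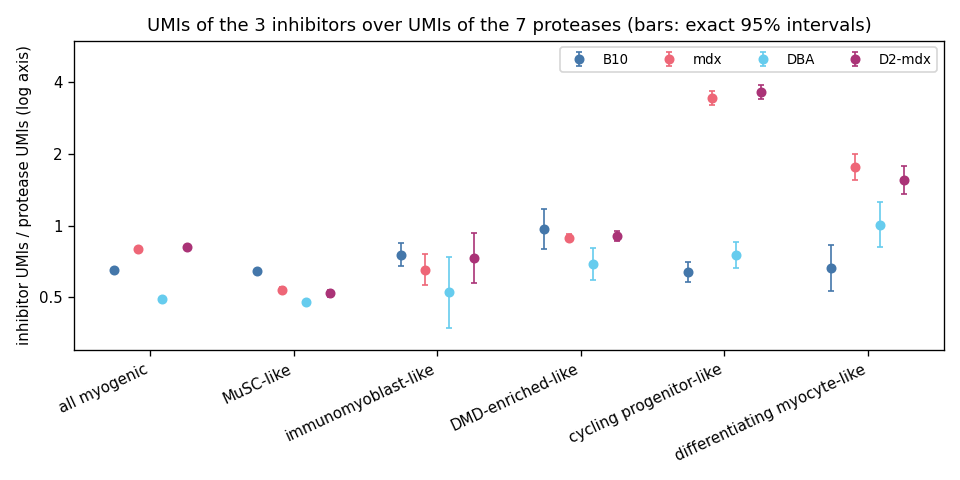
Ratio of the UMIs of the 3 inhibitors to those of the 7 proteases on a log axis, for all myogenic cells and each myogenic state, 1 point per library with exact 95% intervals as bars. Cycling progenitor-like cells of *mdx* and D2-*mdx* stand at 3.44 and 3.65, and those of B10 and DBA at 0.638 and 0.753.

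Other genes of the same system were taken from 7 lists of 98 genes, all of them in the table, and the counts of each stand beside 4.7% of all genes higher and 5.19% lower in *mdx* over B10 and 5.81% and 5.82% in D2-*mdx* over DBA. Of 20 other MMPs, 1 reached 10 CPM in *mdx* over B10 and 2 in D2-*mdx* over DBA. *Mmp11* (log2 ratios 1.31 and 0.99) was higher in *mdx* and *Mmp19* (-1.74) lower in D2-*mdx*. *Mmp9*, the other gelatinase, had 0 UMIs in the myogenic cells of both healthy libraries, was at 0.322 CPM in *mdx* and 0.802 in D2-*mdx* and at 45.5 in white blood cell-like cells, and the collagenase *Mmp13* was at 3170 CPM in tenocyte-like cells. Of 14 other ADAMTS proteases, 5 and 4 reached the minimum, with *Adamts8* (-1.62) lower in *mdx* over B10. Of 6 ADAMTS-like proteins, 2 reached it, and *Adamtsl1* was higher in D2-*mdx* over DBA (3.22), with a log2 ratio of -5.10 in DBA over B10. Of 9 membrane ADAM proteases, 4 reached it, with *Adam19* higher in both comparisons (1.97 and 1.43) and *Adam9* lower in D2-*mdx* over DBA (-1.001). Of 13 other inhibitors, 7 and 6 reached it, with 2 higher in each comparison and 1 lower in *mdx* over B10, among them *Serpinf1* higher in both (1.68 and 1.60), *Serpinh1* in *mdx* (1.66) and *Spock3* lower in *mdx* (-3.30).

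Of 18 activators and other proteases, 12 reached 10 CPM in each comparison. *Prss23*, a serine protease, was at 1.15 CPM in B10, 5.68 in DBA, 19.3 in *mdx* and 37.1 in D2-*mdx*, with log2 ratios of 4.07 and 2.71, and *Fap* (1.60 and 1.63) was also higher in both. *Plaur*, the urokinase receptor, was past 2-fold in D2-*mdx* over DBA alone (2.34, beside 0.98). *Pcsk5*, a proprotein convertase, was at 14.9, 31.6, 3.81 and 3.90 CPM in B10, DBA, *mdx* and D2-*mdx*, with log2 ratios of -1.97 and -3.02. *Htra1*, a serine protease of the matrix, had log2 ratios of -1.45 and -1.36. Of 18 substrates and uptake receptors, 12 reached the minimum, with 6 higher and 0 lower in *mdx* over B10 and 5 higher and 1 lower in D2-*mdx* over DBA, and median log2 ratios of 0.94 and 0.56, beside -0.03 and -0.07 over all genes. *Vcan*, the versican cut by ADAMTS1, ADAMTS4 and ADAMTS5, was at 3.81 CPM in B10, 8.70 in DBA, 33.0 in *mdx* and 27.4 in D2-*mdx*, with log2 ratios of 3.12 and 1.65. *Col1a1* and *Col1a2*, chains of the collagen trimmed by ADAMTS2, had log2 ratios of 2.87 and 3.09 and of 5.85 and 4.503. They are also markers of the DMD-enriched-like cluster. *Thbs1* (3.24 and 2.59) and *Fn1* (1.63 and 2.53) were higher in both comparisons, *Col5a2* in *mdx* over B10 (1.29). *Lrp1*, a receptor that takes up MMPs and ADAMTS proteases, was lower in D2-*mdx* over DBA (-1.01).

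The genes with the most similar pattern were taken over 37 pairs of library and cell class with at least 20 cells, by Pearson's r of log2(CPM + 1) among 11387 genes. These points share libraries and depth, and r is a description. *Timp3* was nearest to its overlapping neighbour *Syn3* (0.92), then *Dlc1* (0.89). *Mmp2* was nearest to the collagen receptor *Mrc2* (0.89) and *Timp2* to *Lrp1* (0.88). *Adamts2* and *Mmp14* were both nearest to *Pcolce*, a gene for an enhancer of procollagen cleavage (0.86 and 0.84). *Adamts1* was nearest to *A230050P20Rik* (0.86), *Adamts5* to *St3gal2* (0.84) and *Timp1* to *Vmp1* (0.82). *Adamts4* (*Mmp11*, 0.73) and *Adamts7* (*Maea*, 0.72) had the lowest first values of r.

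Markers of other cell types were counted in the myogenic cells, as members such as *Timp3* and *Mmp14* are higher in those types. Of the 7 pericyte markers all 7 were detected in each library, and their sum was 26.7 CPM in B10, 37.2 in DBA, 42.01 in *mdx* and 67.4 in D2-*mdx*, 0.255% to 0.644% of that in pericyte-like cells. The 6 markers of white blood cells summed to 1.28, 4.95, 25.1 and 95.2 CPM, at most 0.459% of the level in their own class, with *Ptprc* at 0 in B10. The 6 endothelial markers summed to 3.16, 4.35, 8.99 and 10.3 CPM, at most 0.164%, with *Tie1* at 0 in DBA. The 12 tenocyte and fibroblast markers summed to 581, 784, 244 and 488 CPM, 1.31% to 4.21% of their own class, with *Kera* at 0 in B10 and DBA. A single marker can make most of this sum, as DBA immunomyoblast-like cells summed to 897 CPM with 1 of the 12 detected. The median marker was at 0.021%, 0.021%, 0.059% and 0.135% of its own class in B10, DBA, *mdx* and D2-*mdx*. By the sum the dystrophic libraries were thus lower than the healthy ones, and by the median marker higher. Of the 6 markers of vascular smooth muscle, summing to 411, 512, 579 and 772 CPM, *Rergl* was at 0 in B10 and DBA. The 6 glial markers summed to 27.2, 18.2, 26.2 and 31.3 CPM and the 6 Schwann cell markers to 202, 165, 229 and 208 CPM, with none at 0. *Timp1* in the myogenic cells of *mdx* and D2-*mdx* was at 15.8% and 17.6% of its pooled level in tenocyte-like cells, its highest other class. A UMI of any of 12 genes of other cell types was found in 22.2% of the myogenic cells of B10, 30.5% of DBA, 30.5% of *mdx* and 40.8% of D2-*mdx*. Without these cells the log2 ratios in *mdx* over B10 and in D2-*mdx* over DBA were 6.37 and 5.85 for *Timp1*, -1.46 and -1.50 for *Timp3*, 3.73 and 4.15 for *Adamts2* and 1.13 and 1.53 for *Adamts4*. Those of *Adamts1* were -1.14 and -0.89, the latter under 2-fold.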

How the data were processed

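Single cells of 4 libraries (B10, *mdx*, DBA and D2-*mdx*, 1 library per strain) were captured with 10X Genomics 3′ chemistry. The authors deposited a matrix of UMI counts per gene and barcode for each library, made with Cell Ranger 3.0.1 on mm10 per the labels. The barcode filter and the strand setting of these counts are not given in the sources used here. Following the study, barcodes were kept between 1000 and 5000 genes with a mitochondrial share of no more than 8%, and predicted doublets (2.7% to 5.34% of them) were removed, with Scrublet in scanpy 1.11.5 where the study used DoubletFinder. The kept cells held 37016795 to 52742197 UMIs per library.

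Cells were clustered in Seurat 5.3.0 (canonical correlation integration, 2000 features, 30 dimensions, resolutions of 0.1 for all cells and 0.2 for myogenic cells) and named from fixed markers. The members and the listed genes were left out of the features, except the substrates and uptake receptors, which could stay among them. UMIs were summed per library and class and scaled to the same total (CPM). Intervals are exact Poisson for levels, exact binomial (Clopper-Pearson) for shares and exact conditional binomial for ratios of counts. Shares of cells were taken after thinning each cell to 3000 UMIs, and cells with fewer UMIs were left out of them. A gene was called at a log2 ratio of at least 1 or at most -1 if either library of the pair held 10 CPM or more. With 1 library per group no test was run. The ratio and interval code was tested on simulated data.

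All members were named. From 7 other lists, genes past 2-fold with the same sign in both disease comparisons were named by rule, up to 6 per direction, the other listed genes in the text were named after their values were seen, and for each member the 3 genes with the highest Pearson's r were found, of which the first is given. The members and lists were chosen with earlier results of these data known. Alternatives changed the cells summed, the scaling (edgeR 4.0.16, DESeq2 1.42.0), the weight of cells, the filters, doublets, the clustering, the minimum level and the thinning. Values of some other genes are not reported here. Positions are from GENCODE M21 (GRCm38).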

Additional observations from a re-analysis of the deposited data

Results flagged for a closer look

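Over all kept cells, *Timp3* had a log2 ratio of 0.064 (0.031 to 0.096) in *mdx* over B10 and of -0.88 (-0.92 to -0.85) in D2-*mdx* over DBA. It was picked out because the signs are opposite in the 2 backgrounds, and the difference between them was not tested, as each strain is 1 library. Within the myogenic cells both ratios were below -1, and within pericyte-like cells they were -0.50 and -0.96. The share of pericyte-like cells was 2.14% in B10, 14.7% in DBA, 9.63% in *mdx* and 16.97% in D2-*mdx*.

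Barcodes with over 5000 genes, which the filters left out, also held *Timp1*. They were not divided into cell classes and no doublets were removed from them. Their make-up differed by library. *Pax7* was at 589 CPM in B10, 349 in DBA, 110 in *mdx* and 62.5 in D2-*mdx*, and *Acta1* at 16.2, 6.54, 157 and 225. The part of this in the ratios below was not tested. There were 41 such barcodes in B10, with 10 UMIs of *Timp1*, and 128 in DBA, with 132 UMIs or 27.8 CPM. In *mdx* 213 such barcodes held 1849 UMIs or 213 CPM, and in D2-*mdx* 498 held 5610 UMIs or 255 CPM. The log2 ratio was 4.57 (3.69 to 5.63) in *mdx* over B10 and 3.19 (2.94 to 3.45) in D2-*mdx* over DBA.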

How the results depend on the processing

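Of 640 log2 ratios of the members recomputed under the alternatives, 459 stayed within the counting interval of the reported value, and 26 changed sign, in 14 of 60 pairs of member and comparison. These cover all myogenic cells and MuSC-like cells, and the ratios within the other classes were not recomputed. Of 80 shares of cells recomputed without thinning or with thinning to 2000 UMIs, 75 lay outside the counting interval of the reported share. Among ratios past 2-fold, 245 of 246 kept their sign, and the exception was *Timp3* in *mdx* over B10, at 0.064 over all kept cells. *Adamts5* over all myogenic cells had its reported sign under 5 of 12 alternatives in D2-*mdx* over DBA (-0.54 to 0.51) and 10 of 12 in *mdx* over B10. In MuSC-like cells its ratio in *mdx* over B10 kept its sign under 8 of 9 (-0.01 to 0.27), the exception being without integration. In D2-*mdx* over *mdx*, over all myogenic cells, *Timp1* had its reported sign under 9 of 11 and *Mmp2* under 8. Over all myogenic cells, 5 members were past 2-fold in *mdx* over B10, 3 with a minimum of 50 CPM and 2 in MuSC-like cells only. In D2-*mdx* over DBA, 6 were past it, and 3 over all kept cells, where *Adamts2* was at 0.76. *Adamts1* was under 2-fold with each cell weighted equally (-0.87 and -0.74), and in D2-*mdx* over DBA also with TMM or DESeq2 scaling and with at most 5% of mitochondrial UMIs (-0.97). In D2-*mdx* over *mdx*, 1 member, *Timp3*, was past 2-fold with at least 500 genes and no upper limit. In DBA over B10, 1 was past it over all kept cells (*Adamts2*, at 1.78) and 1 with each cell weighted equally (*Mmp2*). In MuSC-like cells, 2 members were past 2-fold in *mdx* over B10, 4 without a minimum, 1 with 50 CPM and 6 without integration, and in D2-*mdx* over DBA 4 were, and 2 with 50 CPM. Fewer genes pass a higher minimum; the other causes were not tested. No paired analysis was possible because each group is 1 library and the labels give no replicate numbers, and for the same reason no replicate could be left out.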
